A study of Mus musculus with 60 samples.

Results

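The smooth muscle contractile genes examined here were Acta2, Actg2, Tagln, Cnn1, Smtn, Myh11, Myl9 and Des. They were chosen by name, as the genes whose transcripts match a probe on the array, and all 8 were found, on 9 probes, among 20018 genes named through 26413 of the 55681 probes. The probes were designed on the RefSeq transcripts NM_007392 (Acta2), NM_009610 (Actg2), NM_011526 (Tagln), NM_009922 (Cnn1), NM_001159284 and NM_013870 (Smtn), NM_001161775 (Myh11), NM_172118 (Myl9) and NM_010043 (Des). Smooth muscle shortens when filaments of myosin slide along filaments of actin, after calcium entering the cell switches on the kinase that phosphorylates the myosin light chain. In the stomach wall this machinery fills the muscle layers, in the lung it surrounds airways and vessels, and in the liver it is confined mainly to vessel walls and to stellate cells that have become myofibroblasts. Serum response factor, with its partner myocardin, drives many of these genes through a DNA element called the CArG box.

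The samples were lungs, livers and forestomachs from male Muta Mouse, a line carrying a bacterial lacZ reporter transgene, about 10 weeks old and housed singly. All animals were given olive oil by gavage on 28 days. It was given alone (D0) or with benzo(ghi)perylene (BghiP), a polycyclic aromatic hydrocarbon, at 6.25 (D1), 12.5 (D2) or 25 (D3) mg/kg-bw/day, and tissues were taken 72 hours after the last dose. Each group held 5 mice, numbered 1 to 5 at D0, 6 to 10 at D1, 11 to 15 at D2 and 16 to 20 at D3, and each mouse gave 1 array per tissue, 60 arrays in all. RNA came from random pieces of each organ, so the share of muscle in a piece was not set. On each array the tissue RNA carried Cy5, and a reference RNA pooled from 11 mouse cell lines carried Cy3. The value given throughout is log2(Cy5/Cy3) after loess normalization, called the log2 ratio. A difference of 1 between log2 ratios is a doubling of the signal, and a ratio of 0 is the level in the reference. Dyes were not swapped, so ratios are compared for 1 probe between arrays and not between probes.

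The share of probes well above background ranged from 34.9% to 58.6% in lung, from 36.3% to 48.3% in liver and from 21.3% to 53.3% in forestomach. Lung and forestomach arrays lay on slides 1 to 5, each with 1 array of every dose per tissue, and liver arrays lay on slides 6 to 8. Liver and slide therefore cannot be told apart, and neither can dose and the column of the slide. Each labelled organ carried its own markers. All 6 hepatocyte markers were called lower in lung and in forestomach than in liver, where 19.4% and 17.5% of all probes were. All 6 lung epithelium markers were called higher in lung than in liver and forestomach, where 26.2% and 18.8% were. Of 8 keratinocyte markers 7 were called higher in forestomach than in lung and in liver, where 15.7% and 21.5% were. All 9 glandular stomach markers, among them the gastric proton pump genes, were also called higher in forestomach than in lung and liver. Many markers were near background where low. Just 2 hepatocyte markers in lung and 1 lung epithelium marker in liver were well above background on 5 or more of 20 arrays. The lung of D0 mouse 1 stood apart, with all 10 skeletal muscle markers and 7 of 8 keratinocyte markers above every one of the other 19 lungs. The lung of D3 mouse 20 had all 6 hepatocyte markers above the other 19 lungs, with Alb, serum albumin, at 5.08 against 0.07 to 0.91. The forestomach of D0 mouse 2 had all 6 lung epithelium markers above the other 19 forestomachs, with Sftpb, surfactant protein B, at 5.85 against −0.19 to 1.32. The D3 changes of the contractile genes named for lung and forestomach are given with and without these arrays.

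All 8 contractile genes were highest in forestomach, intermediate in lung and lowest in liver. Tissue differences counted as called when they reached 1.5-fold with an adjusted p no higher than 0.05 (limma, Benjamini-Hochberg over 33255 probes). All 8 genes were called higher in forestomach than in lung, where 15.7% of probes were, all 8 higher in forestomach than in liver, where 21.5% of probes were, and all 8 higher in lung than in liver, where 26.2% of probes were. The median difference of the 8 genes was 3.88 on the log2 scale between forestomach and lung, 7.02 between forestomach and liver and 3.20 between lung and liver, against −0.01, 0.02 and 0.06 over all probes. Myh11 was well above background on 4 of 20 liver arrays, so its calls against liver rest on signals near background there. It was tested in those contrasts only through its lung and forestomach signals. Without Myh11 the medians of the other 7 were 3.97, 8.04 and 3.65. In whole pieces of tissue, fewer cells of a type and less RNA per cell cannot be told apart.

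Acta2 encodes the smooth muscle alpha actin of vessels and airways. Its log2 ratio ranged over the 20 arrays of each tissue from 2.05 to 4.16 in forestomach (median 2.86), from −0.96 to −0.09 in lung (median −0.58) and from −3.02 to −2.51 in liver (median −2.74). The 3 tissues did not overlap. Forestomach exceeded lung by 3.54 ± 0.12 (SE; 11.6-fold) and liver by 5.69 ± 0.12 (51.6-fold), and lung exceeded liver by 2.15 ± 0.12 (4.43-fold), with adjusted p values of 1.7e-32, 7.9e-43 and 1.8e-23 (limma).

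Actg2 encodes the gamma actin typical of gut smooth muscle. It ranged from 5.64 to 8.12 in forestomach (median 6.40), from −0.97 to 0.70 in lung (median 0.14) and from −4.07 to −3.09 in liver (median −3.61), again without overlap. The forestomach mean stood 6.46 ± 0.15 above lung (87.9-fold) and 10.11 ± 0.15 above liver (1108-fold), with adjusted p values of 8.2e-39 and 4.6e-49 (limma). Only 0.00301% of probes, which is the Actg2 probe itself, differed as much or more between forestomach and liver in that direction. Lung stood 3.65 ± 0.15 above liver.

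Tagln, also called SM22, and Cnn1, calponin, bind actin filaments and are classical markers of differentiated smooth muscle. Tagln ranged from 3.42 to 6.05 in forestomach, from −0.39 to 1.02 in lung and from −3.95 to −3.14 in liver. Cnn1 ranged from 6.33 to 8.48 in forestomach, from 1.48 to 3.72 in lung and from −2.27 to −0.99 in liver. Neither gene overlapped between tissues. Forestomach exceeded liver by 8.04 ± 0.13 for Tagln (263-fold) and by 8.72 ± 0.16 for Cnn1 (421-fold), and lung exceeded liver by 3.67 ± 0.13 and 4.75 ± 0.16. Cnn1 was well above background on just 10 of 20 liver arrays (1 of 5 at D0), so its differences from liver rest partly on signals at the detection limit.

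**Figure D1:**
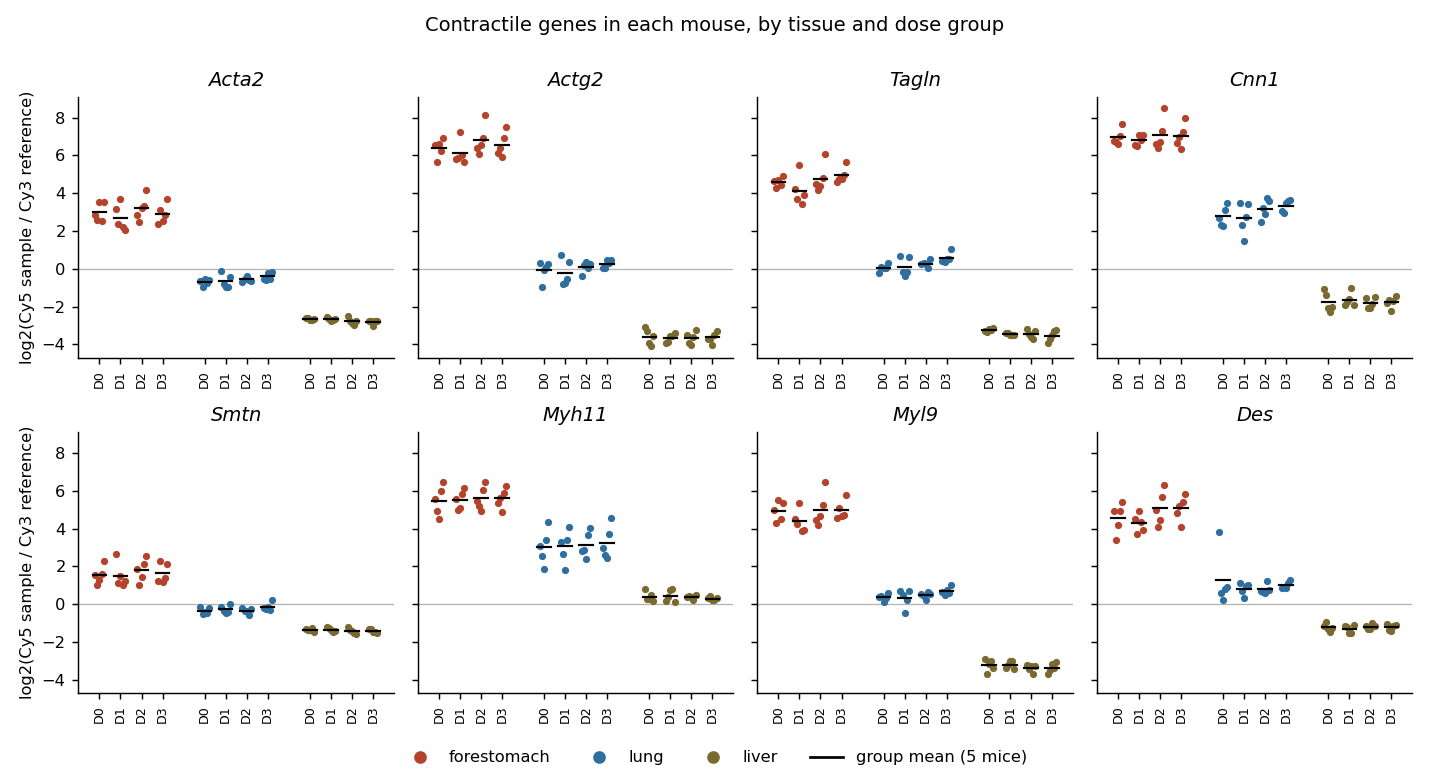
Log2(Cy5/Cy3) of the 8 contractile genes in every mouse, 1 panel per gene, with the 3 tissues side by side and dose groups D0 to D3 along the horizontal axis. Points are mice and bars are means of 5. The forestomach mean lies above the lung mean and the lung mean above the liver mean in each panel, single mice of forestomach and lung overlap for Myh11 and Des, the D0 lung of mouse 1 stands alone at 3.79 for Des, and dose groups within a tissue largely overlap.

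Smtn encodes smoothelin, an actin-binding protein, and was measured by 2 probes that disagreed. The brighter probe, designed on transcript NM_001159284, had medians of 1.45 in forestomach, −0.28 in lung and −1.39 in liver, and it differed by 1.90 ± 0.11 between forestomach and lung. The other probe, designed on NM_013870, had medians of 0.16, −0.34 and −1.89, and differed by just 0.33 ± 0.10 between forestomach and lung, below 1.5-fold and with overlapping tissues (adjusted p = 0.0024, limma). Both probes put liver lowest, by 1.11 ± 0.11 and 1.60 ± 0.10 below lung.

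Myl9, the regulatory light chain whose phosphorylation starts contraction, ranged from 3.87 to 6.45 in forestomach, from −0.46 to 1.00 in lung and from −3.72 to −2.91 in liver. Forestomach exceeded lung by 4.36 ± 0.13 (20.5-fold) and liver by 8.12 ± 0.13 (278-fold). Myh11, the smooth muscle myosin heavy chain, ranged from 4.48 to 6.46 in forestomach, from 1.79 to 4.57 in lung and from 0.13 to 0.82 in liver. Its forestomach and lung ranges overlapped at their edges, and its forestomach mean was 2.43 ± 0.19 above lung. Myh11 was well above background on 4 of 20 liver arrays and on 0 of 5 at D3, where its Cy5 signal gives only a bound. In Cy5 signal alone, which leaves the reference out and is open to dye bias, it was at D3 at least 115-fold higher in forestomach and at least 6.91-fold higher in lung than in liver (mean normalized log2 Cy5 of 13.04, 8.99 and 6.20, with liver arrays at the higher of the probe's own signal and the lowest signal well above background). On the log2 ratio scale the same D3 differences were 5.29 (39.2-fold) and 2.96 (7.77-fold), with Cy3 in liver below background as well, so the fold depends on the scale.

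Des encodes desmin, the intermediate filament of all muscle types. It ranged from 3.41 to 6.32 in forestomach (median 4.88), from 0.22 to 3.79 in lung (median 0.87) and from −1.51 to −0.95 in liver (median −1.20). The lung and forestomach ranges overlapped through the D0 lung of mouse 1 alone, since the other 19 lungs reached 1.25. Forestomach exceeded lung by 3.78 ± 0.19 (13.8-fold) and liver by 6.00 ± 0.19 (63.8-fold). Without mouse 1 these were 3.92 and 5.98.

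The Cy3 channel measured 1 and the same reference RNA on every array, yet for some genes it differed by tissue. The mean normalized log2 Cy3 signal of Cnn1 was 10.13 on forestomach arrays and 8.61 on lung arrays, and that of Myh11 was 7.33 and 5.73, while those of Acta2 were 14.07 and 13.86. Myh11 was well above background in Cy3 on 19 of 20 forestomach arrays, 11 of 20 lung arrays and 0 of 20 liver arrays. No spot of these probes was saturated. In the Cy5 signal alone the forestomach to lung difference was 5.50 for Cnn1 and 4.03 for Myh11, and all 8 genes were called in all 3 contrasts. With the scanner's own processed signals the Myh11 difference fell to 1.05 and the lung to liver difference of Cnn1 rose to 6.52. The size of these differences therefore depended on the channel and on how the signals were processed, and their direction did not.

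**Figure D2:**
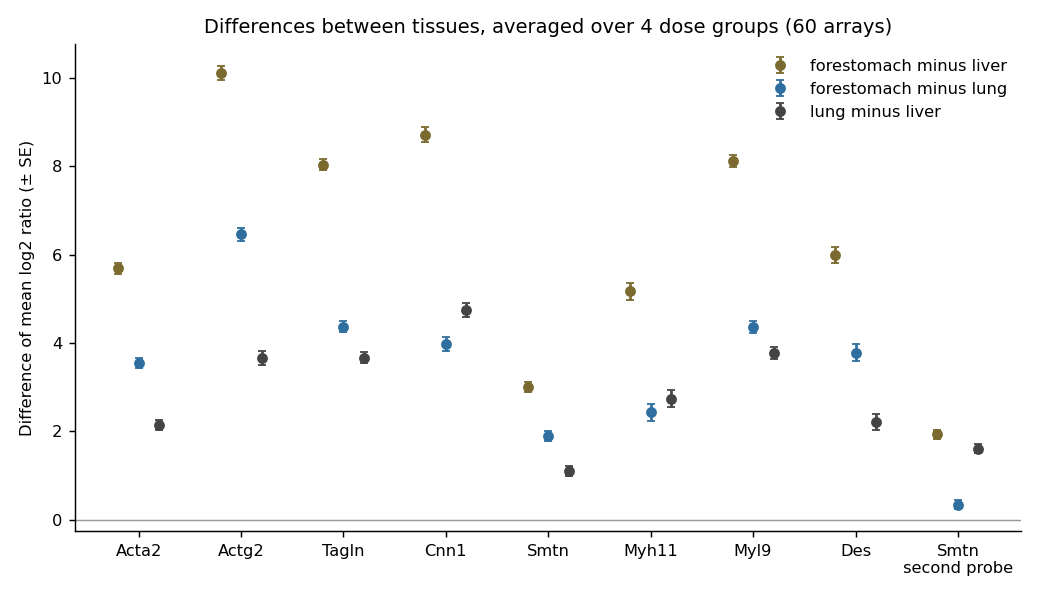
Difference of mean log2 ratio between tissues for each gene, averaged over the 4 dose groups in a model of 60 arrays, with bars of 1 SE. All points lie above 0, from 1.11 (Smtn, lung minus liver) to 10.11 (Actg2, forestomach minus liver) for the 8 main probes, and the other Smtn probe falls to 0.33 between forestomach and lung.

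Because all 8 genes followed the same order, the bases just before their start sites are shown for 3 of the 5 genes with an entry in the RefSeq promoter table (build GRCm38.p6). Acta2 and Myl9 are shown because they hold CArG boxes or near matches, and Cnn1 because it had the largest tissue difference of those 5. Each run gives the 250 bases before the start, read 5′ to 3′ on the strand of the gene, with capitals for a CArG box that departs from the pattern at no more than 1 base. The windows lie at chr19:34255374-34255623 (minus strand), chr2:156775214-156775463 (plus strand) and chr9:22099003-22099252 (plus strand).
Acta2: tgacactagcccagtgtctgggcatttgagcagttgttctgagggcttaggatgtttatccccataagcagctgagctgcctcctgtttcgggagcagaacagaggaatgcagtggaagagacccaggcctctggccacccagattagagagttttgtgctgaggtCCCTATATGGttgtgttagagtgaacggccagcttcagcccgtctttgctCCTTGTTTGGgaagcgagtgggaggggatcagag
Myl9: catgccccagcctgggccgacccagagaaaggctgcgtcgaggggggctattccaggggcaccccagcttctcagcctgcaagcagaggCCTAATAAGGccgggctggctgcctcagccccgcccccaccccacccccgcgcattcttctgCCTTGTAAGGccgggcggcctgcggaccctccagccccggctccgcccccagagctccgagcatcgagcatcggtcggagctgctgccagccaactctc
Cnn1: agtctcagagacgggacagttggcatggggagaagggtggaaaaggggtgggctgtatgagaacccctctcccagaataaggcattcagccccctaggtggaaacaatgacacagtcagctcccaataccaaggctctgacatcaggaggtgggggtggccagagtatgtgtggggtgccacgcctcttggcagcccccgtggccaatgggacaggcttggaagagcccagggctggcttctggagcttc
The CArG box reads the same on both strands, so each search covers both. Myl9 held 1 exact box, CCTAATAAGG, 161 to 152 bases before the start, and 1 near match, CCTTGTAAGG, 99 to 90 bases before it. Acta2 held 2 near matches, CCCTATATGG at 84 to 75 bases and CCTTGTTTGG at 34 to 25 bases. Of 32851 promoter windows of this length, 1.47% held an exact box and 18.6% held a box with at most 1 mismatch. The windows of Cnn1, Smtn and Des held none. Matches are letters only, and binding was not measured.

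The other genes of the contractile apparatus, 54 from a fixed list of which 52 were measured, were split by group. Between forestomach and lung 21 were called higher and 16 lower, between forestomach and liver 37 higher and 4 lower, and between lung and liver 36 higher and 4 lower. The shares of all probes called higher in these contrasts were 15.7%, 21.5% and 26.2%, and those called lower 18.8%, 17.5% and 19.4%. Their median differences were 0.46, 1.35 and 1.11, all smaller than those of the 8 contractile genes. Of the thin filament genes, the tropomyosins Tpm2 and Tpm1, which lie along actin, exceeded lung in forestomach by 4.15 and 2.51, while Cnn2 and Tagln2, broadly expressed relatives of calponin and SM22, were called lower in forestomach than in lung, at −1.24 and −1.28. Of the genes of myosin and its control, Mylk, the kinase that activates the light chain, was 1.31 higher in forestomach than in lung and 2.72 higher than in liver, and the non-muscle myosin Myh10 was called lower in forestomach than in lung, at −1.53.

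All 12 genes of dense bodies, attachment and intermediate filaments were called higher in forestomach than in liver, where 21.5% of all probes were. The top 4 were Csrp1 at 6.69, Synpo2 at 5.91, Pdlim3 at 5.87 and Synm at 5.84. Against lung 8 of these 12 were called higher in forestomach, and Vim (−2.20) and Itga8 (−3.83) were called lower. Of all probes, 15.7% were called higher and 18.8% lower in forestomach than in lung. Of 7 calcium handling and membrane genes 5 were called higher in forestomach than in lung, led by Mrvi1 at 2.61, a target of cyclic GMP signalling, and Itpr1, the receptor that releases stored calcium, was called lower, at −1.43. Of the 10 transcription genes Srf was 2.53 higher and Myocd 1.88 higher in forestomach than in liver. Barx1, a stomach mesenchyme factor, was 2.26 higher in forestomach than in lung, and Gata6, Tead1, Foxf1 and Mrtfb were called lower there, at −0.98 for Mrtfb to −1.75 for Gata6. Of the 8 receptor genes Chrm2, a muscarinic acetylcholine receptor of gut muscle, was called higher in forestomach than in lung (0.84), while Ednra (−2.40), Gucy1a1 (−2.39) and Agtr1a (−1.63) were called lower.

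No contractile gene was called changed by BghiP at any dose in any tissue. Against D0, 0% of probes were called at D1, D2 and D3 in lung (31022 probes tested), liver (25893) and forestomach (25070). At D3 an unadjusted p under 0.05 (limma) was reached by 1490 lung, 3147 liver and 378 forestomach probes, among them those of Tagln in lung and in liver. At D1 and D2 no contractile gene had a p of that size in any tissue. When slide entered the model as a block, the D3 calls came to 0.0677% (lung), 0.0927% (liver) and 0% (forestomach) of probes, and none was a contractile gene. The slope on dose was called for 0% (lung), 0.239% (liver) and 0% (forestomach) of probes, and after the slide block for 0.306%, 2.63% and 0%, with no contractile gene among them in either fit. The dose comparisons within a tissue share the same D0 arrays.

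In lung 4 of 8 contractile genes were higher than D0 at D1, 7 at D2 and 7 at D3, with median changes of −0.01, 0.13 and 0.31. With 1 mouse left out the medians ran from −0.18 to 0.15 at D1, 0.0322 to 0.21 at D2 and 0.20 to 0.40 at D3. The D1 ends came without D1 mice 10 and 8, and the lower and upper ends at D2 and at D3 without D0 mice 2 and 5. At D3 the median over all probes was 0.01, and 52.65% of probes were higher. Tagln had the lowest adjusted p of the 8. Its D0 lungs read −0.21, 0.08, 0.03, 0.02 and 0.30 in mice 1 to 5, and its D3 lungs 0.39, 0.34, 0.49, 0.51 and 1.02 in mice 16 to 20. The groups did not overlap, and mouse 20 was the highest. The change was 0.51 ± 0.19 (SE; 1.42-fold), with an adjusted p of 0.90 (limma), so it failed the correction. The slide block gave an adjusted p of 0.106, and D3 exceeded D0 on all 5 slides, by 0.26 to 0.72. The slope of Tagln over the full dose range was 0.53 ± 0.17 (SE; adjusted p = 0.85, or 0.086 after the slide block, limma), which was not called either. Without D3 mouse 20, the lung with hepatocyte markers, the change was 0.39 ± 0.19, and 6 of the 8 genes were higher at D3, with a median of 0.25. Without D0 mouse 1 the Tagln change was 0.44 ± 0.20.

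Cnn1 read 2.71, 2.31, 2.26, 3.09 and 3.49 in D0 lungs and 3.06, 2.97, 3.45, 3.59 and 3.66 in D3 lungs. These groups overlapped, all 5 D3 lungs lay above the D0 mean, and the difference was 0.57 ± 0.34 (adjusted p = 1.0, limma). Acta2 read −0.67, −0.95, −0.54, −0.75 and −0.61 at D0 and −0.54, −0.58, −0.22, −0.54 and −0.17 at D3, a difference of 0.30 ± 0.14 that was positive within all 5 slides. Myl9 read 0.37, 0.42, 0.12, 0.33 and 0.57 at D0 and 0.62, 0.51, 0.75, 0.60 and 1.00 at D3, with overlap at a single D3 lung, and differed by 0.34 ± 0.17. Actg2 read 0.31, −0.97, −0.07, 0.09 and 0.23 at D0 and 0.04, 0.05, 0.45, 0.28 and 0.45 at D3, a difference of 0.33 ± 0.28 that was 0.11 without D0 mouse 2. Smtn and Myh11 overlapped between the groups and differed by 0.21 ± 0.12 and 0.22 ± 0.49. The other Smtn probe gave −0.06 ± 0.14. Without D0 mouse 1 the differences were 0.30 (Acta2), 0.43 (Actg2), 0.55 (Cnn1), 0.26 (Smtn), 0.23 (Myh11) and 0.34 (Myl9). Without D3 mouse 20 they were 0.23, 0.29, 0.49, 0.12, −0.11 and 0.26 in the same order, so Myh11 turned.

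Des went the other way in lung through 1 array. It read 3.79, 0.61, 0.22, 0.81 and 0.93 at D0 and 0.88, 0.91, 0.87, 1.13 and 1.25 at D3. The difference was −0.27 ± 0.44, and without D0 mouse 1 it was 0.36 ± 0.17 (adjusted p = 1.0, limma). D3 was higher on 4 of 5 slides, all but the slide of D0 mouse 1. Without D3 mouse 20 the difference was −0.33 ± 0.47. Without D0 mouse 1, 8 of 8 contractile genes were higher at D3, with a median of 0.35, and 51.7% of all probes were higher, with 0 probes called and 1432 at an unadjusted p under 0.05 (limma). In the lung of D0 mouse 1 Acta1, skeletal muscle alpha actin, read 6.90 against −3.12 to 0.78 in the other 19 lungs, Ckm, muscle creatine kinase, read 5.56 against −0.09 to 2.44, and Krt4, a keratin of stratified epithelium, read 6.58 against −0.36 to 0.19. None of the other 7 contractile genes was out of the range of the other lungs there. Desmin is shared by skeletal and smooth muscle, and whether RNA of another tissue set the value was not tested.

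**Figure D3:**
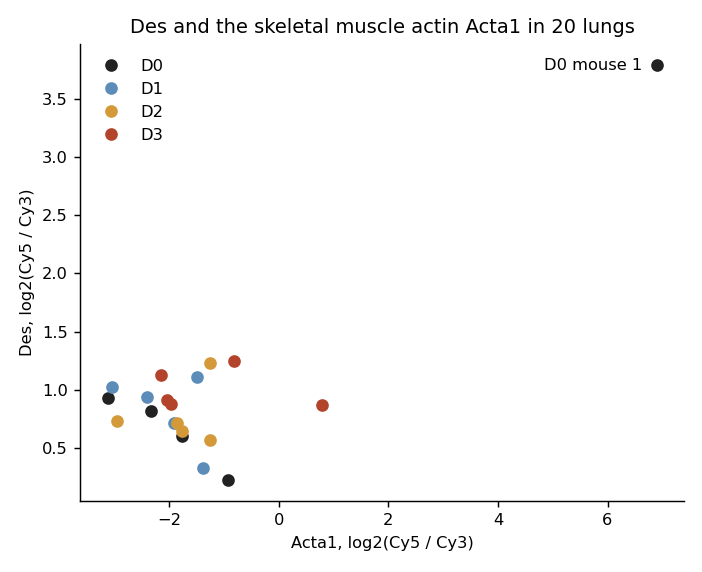
Log2 ratio of Des, the muscle intermediate filament gene, against that of the skeletal muscle actin Acta1 in the 20 lungs, coloured by dose group. The lung of D0 mouse 1 lies at 6.90 for Acta1 and 3.79 for Des, and the other 19 lungs lie between 0.22 and 1.25 for Des.

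Markers of other cells were set beside these values at D3 in lung. All 6 pericyte markers (median 0.14), 5 of 6 fibroblast markers (0.17), all 6 fat cell markers (0.25), all 6 lung epithelium markers (0.21) and all 4 mesothelium markers (0.86) were higher, and none was called. With slide as a block 2 mesothelium markers were called. The mean deviation of the mesothelium list from D0 ranged from −1.14 to 0.92 in D0 lungs and from 0.51 to 1.24 in D3 lungs, and that of the pericyte list from −0.46 to 0.48 and from −0.25 to 0.75. All 7 tested skeletal muscle markers and all 5 keratinocyte markers were lower, with list means of 4.82 and 3.22 in the D0 lung of mouse 1. Without that lung 6 of 7 skeletal muscle markers were higher (median 0.24) and 4 of 5 keratinocyte markers were lower (median −0.04), so the skeletal muscle direction turned, as did that of heart muscle, from 6 of 8 markers lower (−0.13) to 7 of 8 higher (0.24). The pericyte (5 of 6 higher, 0.19), mesothelium (4 of 4, 0.91) and fat cell (6 of 6, 0.56) lists kept theirs. The mean deviation of the 8 contractile genes ranged from −0.36 to 0.36 at D0 and from 0.02 to 0.71 at D3. The part of these markers in the result was not tested.

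In liver 4 of the 7 contractile genes tested were lower than D0 at D1, 6 at D2 and 6 at D3, with median changes of −0.01, −0.07 and −0.05, and Myh11 was left out because it was detected on too few arrays. With 1 mouse left out the medians ran from −0.0289 to 0.0219 at D1, the upper end without D0 mouse 1, and from −0.144 to −0.0515 at D2, the lower end without D0 mouse 4. At D3 the medians ran from −0.139 to −0.0424 with 1 mouse left out. They were −0.139 to −0.0854 without D0 mouse 3, 4 or 5 or D3 mouse 19 or 20. With scale normalization the D3 median was −0.16. At D1 Tagln read −3.40, −3.39, −3.52, −3.49 and −3.51 in mice 6 to 10, below every D0 liver, a difference of −0.22 ± 0.12, and at D2 it differed by −0.21 ± 0.12 with overlapping groups (adjusted p = 1.0 for both, limma). Tagln read −3.30, −3.34, −3.16, −3.27 and −3.14 at D0 and −3.95, −3.74, −3.51, −3.29 and −3.24 at D3. The groups overlapped in mice 19 and 20, and the difference was −0.30 ± 0.12 (adjusted p = 0.32, limma). Acta2 read −2.58, −2.58, −2.74, −2.71 and −2.66 at D0 and −2.75, −2.77, −3.02, −2.77 and −2.78 at D3. These groups did not overlap, by a margin far smaller than their range, and the difference was −0.16 ± 0.09 (1.12-fold; adjusted p = 0.47, limma, or 0.148 with slide as a block). Within slides 6 to 8 both genes were lower at D3 in all 3. All 6 fibroblast markers were lower in D3 livers (median −0.24), 4 of 5 stellate cell markers were lower (−0.05) and 3 of 6 pericyte markers were (0.00), with none called.

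The other 5 liver genes overlapped between D0 and D3 and differed by −0.13 ± 0.15 (Myl9) to 0.01 ± 0.11 (Des). With processed signals Des differed by 0.30.

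In forestomach 1 of 8 contractile genes was higher than D0 at D1, 8 at D2 and 7 at D3, with median changes of −0.28, 0.19 and 0.10. With 1 mouse left out the D1 median ran from −0.50 to −0.11. The D2 and D3 directions rested on single mice. Without D2 mouse 15, 3 of 8 were higher at D2 (median −0.0575). At D3, 3 of 8 were higher without D0 mouse 2, the forestomach with lung epithelium markers (median −0.0269), and 2 of 8 without D3 mouse 20 (median −0.0593). At D1 Myl9, at −0.54 ± 0.39, and Tagln, at −0.47 ± 0.36, were the lowest, with adjusted p values of 0.67 and 0.69 (limma). Tagln read 4.22, 3.67, 5.46, 3.42 and 3.89 in mice 6 to 10 there, against 4.66, 4.28, 4.71, 4.42 and 4.92 at D0. Mouse 8 was above every D0 mouse and the other 4 were below every D0 mouse. All 12 genes of dense bodies, attachment and intermediate filaments were also lower at D1 (median −0.40, none called), where 46.2% of all probes were higher and 2351 had an unadjusted p under 0.05 (limma). At D1 all 9 glandular stomach markers were higher (median 2.83), with list means from −2.44 to 3.74 in D0 and from −1.69 to 4.84 in D1 forestomachs. They were higher at D2 as well (1.68). All 6 fibroblast (−0.32), all 4 mesothelium (−0.44), 6 of 7 skeletal muscle (−0.18) and 5 of 6 fat cell markers (−1.19) were lower at D1. All 3 markers of interstitial cells of Cajal (0.14) and 6 of 8 keratinocyte markers (0.05) were higher. None of these lists had a called gene, and their part in the contractile result was not tested. Des read 4.92, 3.41, 4.18, 4.95 and 5.38 at D0 and 4.84, 5.18, 4.10, 5.43 and 5.83 at D3, with overlapping groups, and differed by 0.51 ± 0.43 (adjusted p = 1.0, limma), or by 0.22 ± 0.42 without D0 mouse 2. Tagln read 4.59, 4.75, 4.74, 4.98 and 5.64 at D3 and differed from D0 by 0.34 ± 0.36, Actg2 by 0.17 ± 0.39 and Acta2 by −0.09 ± 0.36, and the 95% intervals of all 8 genes held 0. Without D0 mouse 2 these became 0.26 (Tagln), −0.0228 (Actg2) and −0.20 (Acta2), and without D3 mouse 20 0.16, −0.0684 and −0.29, with Des at 0.32. The interval of Acta2, from −0.84 to 0.66, did not exclude a change past 1.5-fold in either direction. All 7 tested markers of enteric neurons and glia (median 0.37) and all 3 of interstitial cells of Cajal (0.33) were higher at D3, and 5 of 6 fat cell markers were lower (−0.84), with none called.

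The change at D3 did not differ between tissues for any contractile gene by the test of that difference, and 0% of 33255 probes passed it in any pair of tissues. For Tagln the lung change exceeded the liver change by 0.81 ± 0.35 (adjusted p = 1.0, limma). In lung 34 of the 50 other contractile apparatus genes tested were higher at D3. In liver 14 of 39 tested were, and in forestomach 34 of 49. The medians were 0.08, −0.03 and 0.16, and none was called. These values, and those of the genes named next, include the arrays that stood apart. Among the outermost in each direction were Gucy1a1 (0.39) and Synpo2 (0.36), Hspb6 (−0.61) and Tpm2 (−0.41) in lung, Agtr1a (0.46), Ppp1r12a (−0.41) and Pde5a (−0.39) in liver, and Synpo2 (0.81) and Tpm1 (0.73), Tagln2 (−0.84) and Gata6 (−0.34) in forestomach. With slide as a block Gata6, a transcription factor of lung epithelium and vessel muscle, had an adjusted p of 0.049 in lung (limma) at a difference of 0.35, under 1.5-fold.

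**Figure D4:**
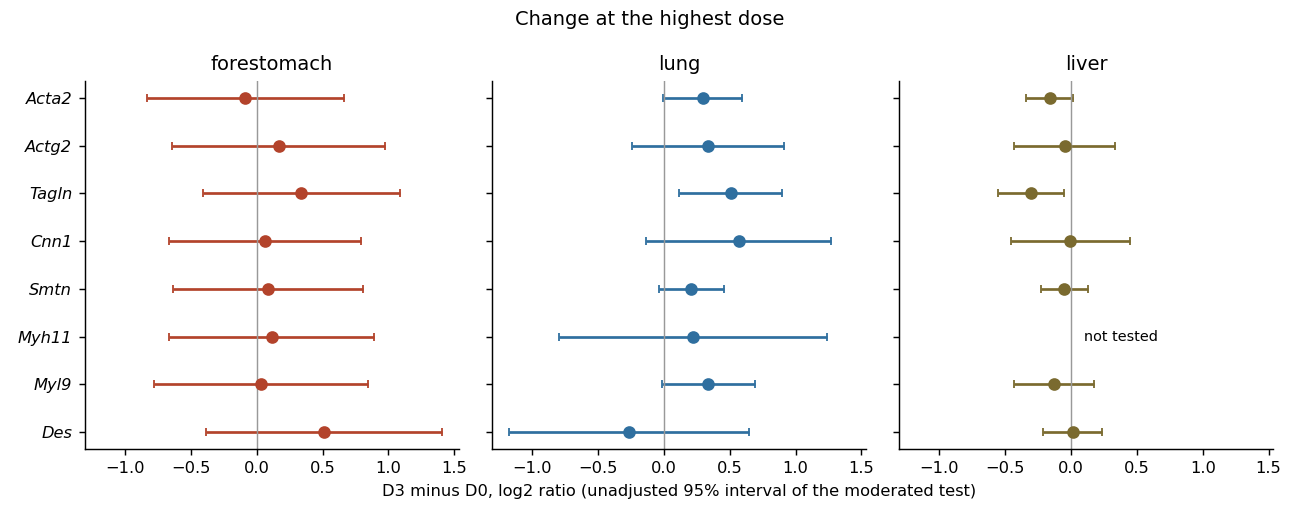
Difference D3 minus D0 in log2 ratio for each contractile gene, by tissue, with the unadjusted 95% interval of limma's moderated test. The lung interval of Tagln (0.12 to 0.90) and the liver interval of Tagln (−0.55 to −0.05) leave out 0, and those of the other main probes include it.

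All 8 contractile genes varied more between mice in forestomach than most probes did, and 7 of 8 did so in lung. Their SD within dose groups was 0.58 to 0.72 in forestomach, larger than that of 86.1% to 91.1% of probes, whose median SD was 0.29. The forestomach of D2 mouse 15 was the highest of 20 for 7 of the 8 genes, with 8.12 for Actg2, 8.48 for Cnn1 and 6.45 for Myl9, and it was among the top 2 for all 8. In lung the SD ran from 0.19 for Smtn, larger than that of 44.8% of probes, to 0.84 for Myh11, larger than that of 98.9%, and Actg2 (92.1%), Cnn1 (95.4%) and Des (98.2%) also ranked high. In liver the 7 tested genes spread from 0.12 for Acta2 and for Smtn, larger than that of 8.44% and 7.55% of probes, to 0.24 for Myl9 (76.5%), 0.32 for Actg2 (90.3%) and 0.38 for Cnn1 (94.5%). D3 mouse 20 was among the top 2 lungs for 7 of 8 genes, and D1 mouse 8 was the lowest lung for 5.

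Some of that spread lay between slides. The Myh11 SD in lung fell from 0.84 to 0.24 once slide was in the model, and in forestomach from 0.62 to 0.22. On slide 3 the 4 lungs read 1.86, 1.79, 2.40 and 2.45 for Myh11, and on slide 5 they read 4.33, 4.09, 4.04 and 4.57. The mean deviation of the 8 genes was −0.23 on slide 3 and 0.45 on slide 5 in lung, where 39.0% and 58.4% of probes were well above background, and 0.63 on slide 5 in forestomach, where 50.7% were. For the forestomach SD of Acta2 (0.60 without and 0.58 with slide), Myl9 (0.65 and 0.60) and Tagln (0.60 and 0.55) slide made little difference.

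Mice with more of 1 contractile gene had more of the others in forestomach. Over its 20 arrays, with dose group means removed, the median Pearson r of the 28 pairs was 0.73 (range 0.21 to 0.94), and 24 pairs were above 0.5. The closest pairs were Acta2 with Myl9 (0.94) and Tagln with Myl9 (0.92), and the loosest was Acta2 with Myh11 (0.21). In lung the median was 0.59 (−0.04 to 0.85), with 17 of 28 pairs above 0.5, and the 7 pairs of Des had a median of 0.27. Without D0 mouse 1 the lung median was 0.64 (0.26 to 0.87), with 21 pairs above 0.5, and the Des pairs had a median of 0.51. In liver, with 21 pairs, the median was 0.22 (−0.60 to 0.79), and 3 were above 0.5. With slide means also removed the medians were 0.84, 0.58 and 0.19. These values describe arrays that share slides and dye handling, and genes that may share cells.

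**Figure D5:**
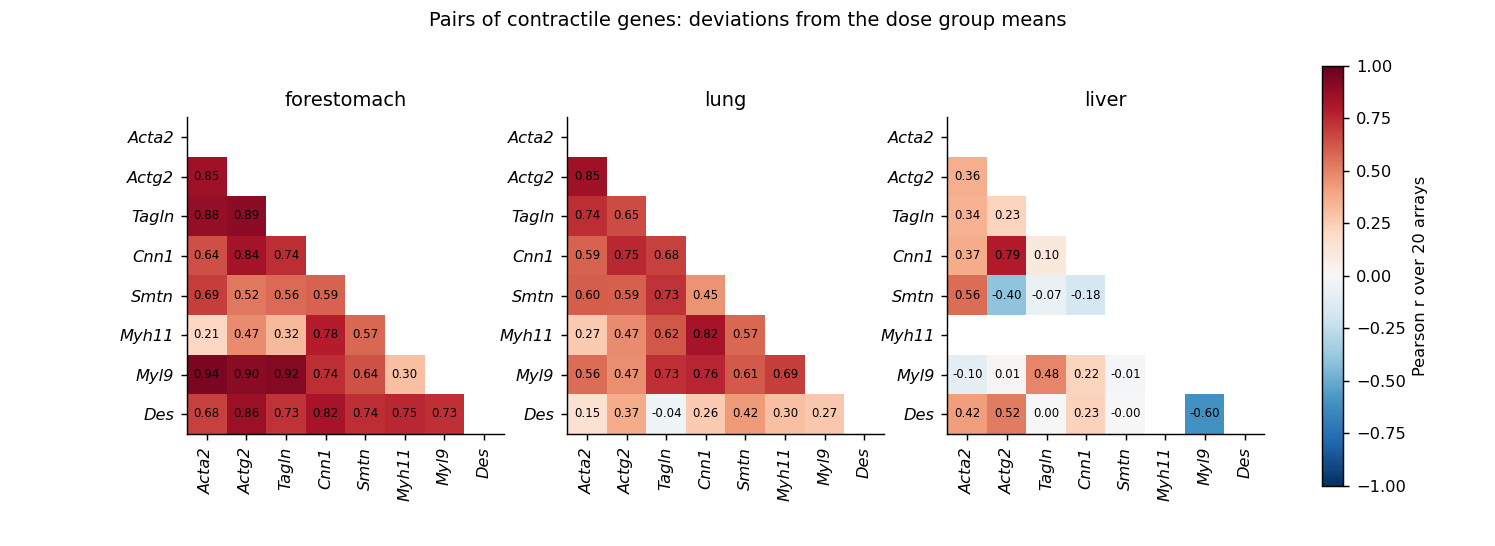
Pearson r between pairs of contractile genes over the 20 arrays of each tissue, after subtraction of dose group means, with colour from −1 to 1. Forestomach pairs reach 0.94 and have a median of 0.73, lung pairs a median of 0.59, and liver pairs a median of 0.22. Myh11 was not tested in liver.

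The genes most like the mean of the contractile genes in forestomach, of 13021 compared, were Vwa1 (r = 0.957), Rbpms2 (0.955), Lims2 (0.952), Cfl2 (0.950), Six5 (0.944), Tbxa2r (0.942), Tlcd5 (0.941), Tgfbi (0.937), Itgb3 (0.929) and Speg (0.927), over 20 arrays. Rbpms2 is a known regulator of gut smooth muscle, Lims2 an adaptor of cell adhesions, Tbxa2r the thromboxane receptor and Speg a muscle kinase. In lung, of 14220 genes, they were Ndufb3 (0.913), Ptprz1 (0.905), Med13 (0.903), Mrps17 (0.902), Lnx1 (0.901), Fbxl22 (0.899), Gpx2 (0.899), Lypd2 (0.894), Etfb (0.889) and Tob1 (0.881). In liver, of 12654, they were Selenom (0.763), Mnd1 (0.755), Tnnt2 (0.755), Dpysl3 (0.747), Coq4 (0.724), Fbln1 (0.706), Mfap5 (0.702), Rgp1 (0.696), Mrvi1 (0.684) and Ccdc88c (0.673). These lists depended on slide: with slide means removed just 3 of the 10 stayed among the 10 most alike in forestomach (Vwa1, Rbpms2 and Six5), 1 in lung (Gpx2) and 2 in liver (Mnd1 and Tnnt2).

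The means of whole lists were set beside the mean of the contractile genes in the same way. In forestomach the other contractile apparatus genes followed it most closely (Pearson r = 0.90, Spearman rho = 0.91), the pericyte list followed with 0.73 and 0.74, while lists of skeletal muscle (0.72), enteric neurons and glia (0.71), keratinocytes (0.69), mesothelium (0.68) and interstitial cells of Cajal (0.66) had a like Pearson r. Without the 2 arrays farthest from each list's median these became 0.72 (pericyte), 0.47, 0.50, 0.80, 0.53 and 0.56. The glandular stomach list ran the other way (−0.30 and −0.38). In lung the other contractile apparatus genes gave 0.83 and 0.84 and the pericyte list 0.79 and 0.79, with 0.75 for the glandular stomach list (3 genes) and 0.70 for lung epithelium. In liver the values were lower, at 0.44 and 0.36 for the other contractile apparatus genes and 0.35 and 0.29 for the pericyte list, and the heart muscle list, there 3 genes, gave the highest, at 0.71 and 0.70. The share of probes well above background, a measure of array brightness, gave 0.72 and 0.68 in lung, 0.57 and 0.58 in forestomach and −0.25 and −0.27 in liver. Without the 2 arrays farthest from the median of the compared measure, r was 0.81 and 0.80 for the other contractile apparatus genes in forestomach and lung, and 0.67 and 0.47 for brightness in lung and forestomach. The part of array brightness in the lung and forestomach pairs was not tested.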

How the data were processed

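Scanner files of 60 two-colour Agilent arrays gave Cy5 (tissue) and Cy3 (reference) median intensity per spot, which the authors had deposited without normalization, as extracted by Feature Extraction 10.7.3.1 with build mm9. The authors also deposited a table of normalized log2 ratios, used as an alternative (r with the values here 0.992 to 0.999 per array).

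Median intensities were loess-normalized within arrays without background subtraction, following the study's methods. Control spots (3671 of 62976) were left out, outlier spots (0.46%) set missing and spots of a probe averaged, which left 0.0358% of probe values missing. No spot was saturated. Probes were named by accession through RefSeq (26413 of 55681 matched). A probe was tested in a tissue when 5 or more of its 20 arrays had Cy5 well above background. The brightest probe stood for a gene with several.

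Tests used limma 3.58.1 (R 4.3.3) with Benjamini-Hochberg adjustment over all tested probes. Each dose was compared with D0, and a slope on dose fitted, over the 20 arrays of a tissue, and tissues were compared over 60 arrays in 12 groups. Calls needed an adjusted p of 0.05 and 1.5-fold, and slopes an adjusted p of 0.05 alone. The study's own shrinkage test was replaced by limma's moderated test. The fits were tested on simulated data. The number of arrays limits the precision.

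All 8 contractile genes are named whatever their values, as are the 10 genes most like their mean in each tissue. Of the other contractile apparatus genes, called genes were named by group, or the outermost 2 in each direction where none was called, except 1 gene that is not reported here. The genes, lists and rules were chosen with earlier results of these data known. Numbers pair arrays across tissues because the labels give the same animal. Over probes, deviations of the same mouse correlated with a median r of 0.254 between forestomach and lung, which also share slides, 0.0107 between forestomach and liver and 0.0715 between lung and liver. Alternatives were background correction, normalization, filters, slide or mouse as a block, variance model, choice of probe and leaving out each mouse.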

Additional observations from a re-analysis of the deposited data

Results flagged for a closer look

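In 8 of 108 sets of 5 mice 1 value stood far from the other 4, against about 5.4 expected, since chance marks about 1 in 20. All values are log2 ratios.

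The lung of D0 mouse 1 read 3.79 for Des, against 0.22 to 0.93 in the other 4 D0 lungs. The lung of D3 mouse 20 read 1.02 for Tagln, against 0.34 to 0.51, and 0.22 for Smtn, against −0.30 to −0.18. The lung of D2 mouse 14 read 1.23 for Des, against 0.57 to 0.73. The forestomach of D1 mouse 8 read 7.23 for Actg2, against 5.66 to 6.04. The forestomach of D1 mouse 6 read 2.67 for Smtn, against 1.00 to 1.47. The liver of D3 mouse 18 read −3.02 for Acta2, against −2.78 to −2.75. The mean deviation of the contractile genes from D0 was 0.046 in the liver of D1 mouse 9, against −0.061 to −0.039.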

How the results depend on the processing

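All 8 contractile genes were called in all 3 tissue contrasts under every alternative that kept the probe, including the replicate block of mouse number, under which the largest adjusted p was 3.9e-12 (Smtn, lung minus liver, limma). The replicate block changed no call. The exception was the other Smtn probe, with 0.33 between forestomach and lung. No contractile gene was called for dose under any alternative. Quantile normalization of average signals leaves ratios as they are by construction. Scale normalization, the Cy5 signal alone, the lung pairs and marker lists without D0 mouse 1 and the tissue medians without Myh11 were added after seeing the data. No cause of the shifts below was tested.

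For all probes, processed signals gave 1 call at D3 in lung, 5 at D3 in liver, and 17813 and 20593 calls for forestomach against lung and against liver. Slide as a block gave 21 and 24 calls at D3 in lung and liver, and 95 lung slopes. A single model of 60 arrays gave 836 calls at D1 in forestomach, 1 at D1 and 5 at D3 in liver. Scale normalization gave 3 calls at D3 in liver, and 1 call each for the D3 change of forestomach against lung and against liver. Leaving out 1 mouse gave 0 to 29 calls at D3 in liver (29 without D0 mouse 1), and 0 to 1 for those D3 changes. The count of probes called on slope, liver, was 62 as reported, 117 with processed signals, 171 with a filter on all 20 arrays, 681 with slide as a block, 213 with scale normalization and 0 to 240 with 1 mouse left out (0 without D0 mouse 3 or D3 mouse 17, 19 or 20, and 240 without D0 mouse 1).

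The median change of the contractile genes in liver was −0.19 at D2 and −0.16 at D3 with scale normalization, −0.13 at D3 with the filter on all arrays, and −0.139 to −0.0424 at D3 with 1 mouse left out. In forestomach the median ran from −0.50 to −0.11 at D1, −0.0575 to 0.36 at D2 and −0.0593 to 0.29 at D3 with 1 mouse left out. Signs of uncalled D3 changes turned as follows. With processed signals Cnn1 in liver was 0.083, Smtn in forestomach −0.19 and Myh11 in forestomach −0.13. The other Smtn probe gave −0.0587 in lung, 0.078 in liver and −0.15 in forestomach, and the mean of both probes 0.0126 in liver and −0.0333 in forestomach. Des in liver was −0.0114 with normexp, −0.0307 with slide as a block and −0.0334 with scale normalization. Acta2 in forestomach was 0.048 with the deposited ratios. With 1 mouse left out the ranges were −0.11 to 0.55 (Myh11) and −0.53 to 0.36 (Des) in lung, −0.17 to 0.0799 (Actg2), −0.13 to 0.18 (Cnn1) and −0.0448 to 0.08 (Des) in liver, and −0.29 to 0.0511 (Acta2), −0.0684 to 0.33 (Actg2), −0.17 to 0.24 (Cnn1), −0.0726 to 0.27 (Smtn), −0.14 to 0.35 (Myh11) and −0.17 to 0.18 (Myl9) in forestomach. Signal over background limits the liver values of Cnn1 and Myh11, well above background on 10 and 4 of 20 arrays.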

Other observations

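Heart muscle genes varied widely between lungs. Myh6, a myosin heavy chain of heart muscle, ranged from 0.17 to 7.11 on the log2 ratio scale over the lungs other than D0 mouse 1. Nppa, atrial natriuretic peptide, ranged from −0.22 to 3.96 there. All 8 heart muscle markers were called higher in lung than in liver (limma), where 26.2% of all probes were. Just 3 of the 8 were well above background on 5 or more liver arrays, so the other calls rest on signals near background there. The mean of the 8 markers followed that of the contractile genes in lung with a Pearson r of 0.52 and a Spearman rho of 0.49 over 20 arrays.

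Of all probes, 21.5% were called higher in forestomach than in liver and 17.5% lower. Fibroblast markers were called higher in forestomach than in liver in 6 of 6 cases, interstitial cell of Cajal markers in 3 of 3, enteric neuron and glia markers in 7 of 7, fat cell markers in 6 of 6 and mesothelium markers in 4 of 4. Of the pericyte markers 3 of 6 were. Well above background on 5 or more liver arrays were just 2 Cajal cell, 2 enteric neuron and glia, 3 fat cell and 2 mesothelium markers. Calls of the other markers in those lists rest on signals near background in liver. Hepatic stellate cell markers were called lower in forestomach than in liver in 5 of 5 cases, with 1 marker well above background on 5 or more forestomach arrays. Of 7 skeletal muscle markers 4 were called higher and 1 lower.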
